A study of Mus musculus with 21 samples.

Results

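The 10 genes described here are imprinted genes with known parts in growth, or belong to the Dlk1-Meg3 imprinted locus. They are H19, Igf2, Dlk1, Meg3, Rian, Mirg, Cdkn1c, Peg3, Mest and Grb10, chosen by name, and they make up 10 of the 55400 gene rows in the count table. All 10 were found by gene identifier and all 10 passed the filter on low counts in each comparison. Each gene had between 175 and 79370 reads in every library, the lowest being Mirg in a library of GSKJ4-treated D4H8 cells and the highest Grb10 in a library of untreated D4H8 cells.

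The cells were motor neuron cultures made from wild-type C57BL/6 mouse embryonic stem cells, which had been kept on mitomycin-treated mouse embryonic fibroblasts before differentiation. Embryoid bodies were patterned with 1 μM retinoic acid and 0.5 μM of the Sonic hedgehog agonist SAG, and 5 μM of the Notch pathway inhibitor DAPT was added at day 4. At day 5 the medium was replaced by one with DAPT that lacked retinoic acid and SAG. Effects of these changes of medium and of the passage of time cannot be told apart in the stage comparisons. Untreated cultures were collected at day 4 (D4), 8 hours later (D4H8), at day 5 (D5) and at day 6 (D6). Cultures of the D4H8_GSKJ4, D5_GSKJ4 and D6_GSKJ4 groups received GSKJ4, an inhibitor of the H3K27 demethylases of the Kdm6 family, during the day before collection. Each of the 7 groups had 3 libraries labelled as biological replicates, and nothing in the labels ties a replicate to a separate derivation of the stem cells.

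Imprinted genes are transcribed mostly from the copy inherited from only one parent, which is set by DNA methylation laid down in the germ line. In the Dlk1-Meg3 locus the paternal copy makes Dlk1, a membrane protein related to Notch ligands, while the maternal copy makes the long non-coding RNAs Meg3, Rian and Mirg. Rian carries small nucleolar RNAs, and Mirg lies in a large cluster of microRNAs. H19, a maternally expressed non-coding RNA and host of a microRNA, shares its control region with the paternally expressed growth factor gene Igf2. Cdkn1c encodes a cyclin-dependent kinase inhibitor that restrains growth, Grb10 an adaptor that dampens insulin and IGF receptor signalling, Peg3 a zinc-finger protein, and Mest a protein of the hydrolase family. RNA-seq without reads assigned to parental alleles gives the summed output of both copies, so imprinting itself was not measured.

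In GRCm38 coordinates, Dlk1 lies on chromosome 12 from 109452823 to 109463336 on the plus strand. Meg3 (109541001 to 109571726), Rian (109603940 to 109661716) and Mirg (109729764 to 109749460) follow it on the same strand. H19 (142575529 to 142578143), Igf2 (142650766 to 142666816) and Cdkn1c (143458339 to 143461050) lie near one another on the minus strand of chromosome 7, and Peg3 (6703892 to 6730431) lies far from them on the same strand of that chromosome. Mest lies on chromosome 6 from 30723547 to 30748465 on the plus strand, and Grb10 on chromosome 11 from 11930508 to 12038683 on the minus strand. Of the exonic bases of Igf2, 3596 (62.8%) are shared with Gm49394, a readthrough model on the same strand that had 25 reads over all 21 libraries. Mest shares 912 exonic bases with Copg2 on the other strand, which had 47968 reads, and Cdkn1c shares 625 with the antisense gene Gm44732, which had 688. The counting strand was not given in the sources used here, so reads of Mest and Cdkn1c from the bases shared with the other strand cannot be told apart. Reads on the bases that Igf2 shares on its own strand can be assigned to neither gene, while FPKM divides by the full length, so the level of Igf2 against other genes is uncertain and may be too low.

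The microRNAs inside these genes are shown because Meg3, Rian, Mirg, H19 and Mest are their host transcripts, and the host transcripts are what was measured. The RefSeq table (GRCm38.p6) placed 41 mature microRNAs inside 6 of the 10 genes on the same strand, of which 26 lay in Mirg, 6 in Rian, 3 in Meg3 and 2 each in H19, Igf2 and Mest. Sequences run 5′ to 3′, and the capitals mark the seed, bases 2 to 8.
miR-675-5p (in H19): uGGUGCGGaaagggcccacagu
miR-675-3p (in H19): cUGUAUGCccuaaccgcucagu
miR-770-5p (in Meg3): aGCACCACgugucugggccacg
miR-770-3p (in Meg3): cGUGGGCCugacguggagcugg
miR-370-3p (in Rian): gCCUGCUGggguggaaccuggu
miR-134-5p (in Mirg): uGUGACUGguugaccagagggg
miR-410-3p (in Mirg): aAUAUAACacagauggccugu
miR-453 (in Mirg): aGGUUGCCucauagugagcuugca
miR-496a-5p (in Mirg): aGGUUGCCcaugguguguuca
miR-335-5p (in Mest): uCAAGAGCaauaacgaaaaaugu
Only miR-453 and miR-496a-5p share a seed among the 41. The libraries were made from poly-A RNA, so mature microRNAs were not measured. Between the start of Dlk1 and position 110281097 the count table has 67 microRNA rows with 1206 reads in all over the 21 libraries and 23 small nucleolar RNA rows with 578 reads. Dlk1, Meg3, Rian and Mirg together held 99.2% of the reads over the 116 rows of this interval.

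The promoter windows below reach from 250 bases before to 50 bases after a RefSeq transcription start. They are shown for Meg3, the first start of the maternal non-coding RNAs, for its paternal neighbour Dlk1, and for Peg3, which was called in no stage comparison. Capitals mark TGACGTCA, the cyclic AMP response element, which reads the same on both strands.
Meg3, chr12:109540746-109541045, plus strand: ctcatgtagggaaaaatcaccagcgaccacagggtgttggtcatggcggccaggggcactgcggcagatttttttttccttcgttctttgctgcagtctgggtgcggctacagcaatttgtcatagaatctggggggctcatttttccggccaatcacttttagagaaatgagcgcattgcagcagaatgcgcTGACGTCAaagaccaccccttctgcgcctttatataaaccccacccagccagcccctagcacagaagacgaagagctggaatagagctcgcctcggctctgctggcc
Dlk1, chr12:109452573-109452872, plus strand: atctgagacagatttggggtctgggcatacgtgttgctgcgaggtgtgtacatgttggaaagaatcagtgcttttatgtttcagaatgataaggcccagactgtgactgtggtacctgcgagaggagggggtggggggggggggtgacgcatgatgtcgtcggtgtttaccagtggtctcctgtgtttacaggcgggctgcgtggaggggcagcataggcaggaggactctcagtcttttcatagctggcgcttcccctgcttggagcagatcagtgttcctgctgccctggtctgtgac
Peg3, chr7:6730370-6730669, minus strand: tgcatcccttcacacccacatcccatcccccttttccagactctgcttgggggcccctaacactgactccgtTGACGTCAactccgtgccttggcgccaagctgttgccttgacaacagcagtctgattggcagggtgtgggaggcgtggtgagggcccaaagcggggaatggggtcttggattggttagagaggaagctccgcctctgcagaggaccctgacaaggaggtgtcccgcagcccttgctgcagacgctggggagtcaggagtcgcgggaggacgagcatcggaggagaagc
TGACGTCA stood in 588 of 32851 promoter windows of the same length (1.79%), and among the 15 windows of 8 of these genes it stood in the ones printed for Meg3 and Peg3. The TATAAA motif, searched on both strands, stood in 13.6% of all windows and in the same Meg3 window. The printed windows held 13 CpG dinucleotides for Meg3, 9 for Dlk1 and 13 for Peg3, against a median of 7 over all windows.

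Depth per library ran from 14982115 to 34383842 counted reads (median 16238435), and the deepest was an untreated D4H8 library. The cells carried motor neuron markers at the late stages: the summed level of Isl1, Mnx1, Lhx3, Isl2, Chat and Slc18a3 ran from 7.53 to 19.1 FPKM at D4 and from 394 to 456 FPKM at D6, with all 6 at or above 1 FPKM in each D6 library. Of 5 pluripotency markers 4 or 5 were at or above 1 FPKM in each untreated library, and their sum ran from 121 to 285 FPKM at D4 and from 11.2 to 90.6 FPKM at D6. Of 10 fibroblast markers between 2 and 6 reached 1 FPKM in any library, and their sum stayed between 6.64 and 31.6 FPKM in the 7 groups. In the D4H8_GSKJ4 group the library of replicate 2 stood apart for several of these genes, and values without it are given beside the results at that stage. The D5_GSKJ4 library of replicate 2 listed 39381 genes at 0, against 29339 to 32805 in the other 20 libraries. Fewer cells of a type and less RNA per cell cannot be told apart in these bulk cultures.

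Between D4 and D6, Meg3, Rian, Mirg, Cdkn1c, Igf2 and Dlk1 rose and Grb10 and Mest fell, while H19 and Peg3 did not pass the test. This is 6 raised and 2 lowered of 10, against 32.9% raised and 31% lowered of the 17519 genes tested (edgeR's quasi-likelihood test over the 12 untreated libraries, Benjamini-Hochberg adjusted p under 0.05). The median log2 fold change of the 10 genes was 0.96, and that of all tested genes -0.04. Of the 3 steps, that from D4H8 to D5 had the most calls, with 7 genes raised and 2 lowered, against 17.2% raised and 10.5% lowered of all genes. From D4 to D4H8 only Dlk1 and Cdkn1c rose and none fell, with 4.06% raised and 0.32% lowered of all genes. From D5 to D6 Meg3 and Rian rose and Dlk1 and Grb10 fell, with 19.2% raised and 15.1% lowered of all genes.

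**Figure D1:**
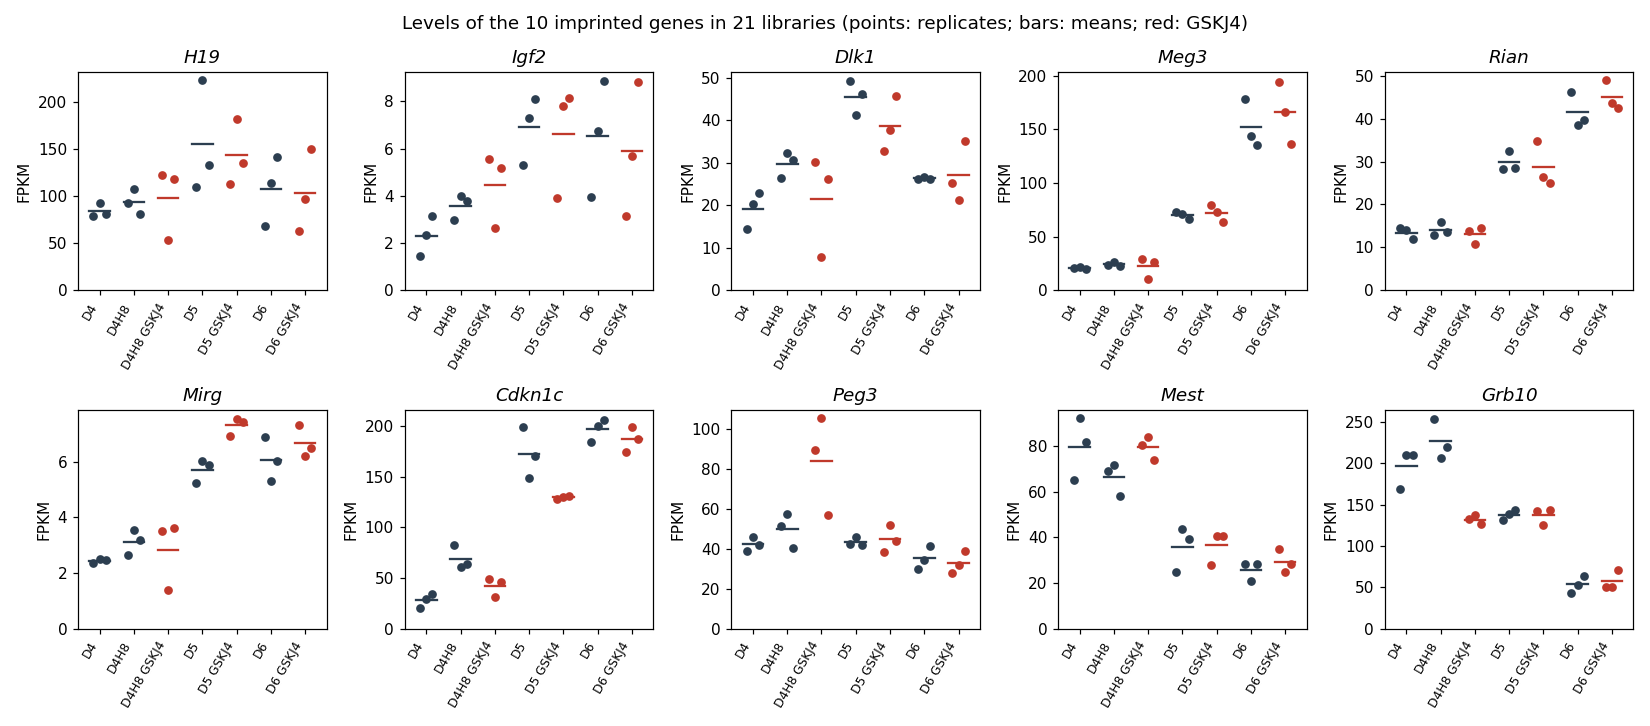
Level of each gene in FPKM (vertical axis, linear from 0, one scale per gene) in the 7 groups, with one point per library, a bar at the mean of 3 replicates, and GSKJ4 groups in red. Meg3 lies between 19.7 and 26.5 FPKM in the D4 and D4H8 libraries and between 135 and 178 FPKM in the D6 libraries, while Grb10 runs the other way.

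Meg3, a long non-coding RNA, showed the largest rise of the 10 genes. Its levels were 21.2, 21.3 and 19.7 FPKM at D4, 23.9, 26.5 and 22.4 at D4H8, 72.9, 70.7 and 66.3 at D5, and 178, 144 and 135 at D6. D4 and D4H8 did not overlap, but the step between them did not pass the test, with a log2 fold change of 0.17 (SE 0.15, adjusted p = 0.612). The next steps stood well clear of the spread between replicates, with log2 fold changes of 1.53 (SE 0.15, adjusted p = 6.47e-06) to D5 and 1.24 (SE 0.15, adjusted p = 4.67e-05) to D6. Over the whole course Meg3 rose by 2.95 on the log2 scale (SE 0.16, adjusted p = 2.99e-09), with a range of 2.78 to 3.05 over the fits that each lacked 1 library.

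Rian, the host of small nucleolar RNAs, rose with a smaller amplitude. It stood at 14.4, 14.1 and 11.9 FPKM at D4 and at 12.8, 16.0 and 13.6 FPKM at D4H8, and these groups overlapped. It then stood at 28.3, 32.5 and 28.6 FPKM at D5 and at 46.3, 38.4 and 39.7 FPKM at D6, each group above the one before. The log2 fold changes of these steps were 1.08 (SE 0.15, adjusted p = 0.000131) and 0.59 (SE 0.15, adjusted p = 0.00819). The exonic length behind the deposited Rian values was 31981 bases, against 18234 in the annotation used here. Reads were not recounted over the shorter length, so the level of Rian against other genes is uncertain.

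Mirg, the transcript across the distal microRNA cluster, reached its late level by D5. It was at 2.36, 2.49 and 2.47 FPKM at D4, at 2.66, 3.54 and 3.18 at D4H8, at 5.23, 6.04 and 5.89 at D5 and at 6.90, 5.31 and 6.03 at D6. Only the step from D4H8 to D5 passed the test, with a log2 fold change of 0.88 (SE 0.14, adjusted p = 0.000453), and the D5 and D6 libraries overlapped (log2 fold change 0.21, SE 0.14, adjusted p = 0.282). From D4 to D6 Mirg rose by 1.39 on the log2 scale (SE 0.15, adjusted p = 1.8e-06) and Rian by 1.68 (SE 0.16, adjusted p = 4.75e-07).

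Dlk1, the coding gene expressed from the other parental copy of the same locus, rose and then fell. Its levels were 14.3, 20.3 and 23.0 FPKM at D4, 26.5, 32.3 and 30.6 at D4H8, 49.3, 41.2 and 46.3 at D5, and 26.3, 26.6 and 26.2 at D6. The D5 libraries were above all others of the untreated course, and the D6 libraries lay above those of D4 and overlapped those of D4H8. Dlk1 rose by 0.59 on the log2 scale to D4H8 (SE 0.13, adjusted p = 0.0202) and by 0.62 to D5 (SE 0.13, adjusted p = 0.00315), and it fell by 0.68 to D6 (SE 0.13, adjusted p = 0.00157). The first step lost its call in 4 of the 12 fits that each left out one library, with adjusted p of 0.0841 without D4 replicate 1, 0.0615 without D4 replicate 2, 0.0922 without D4H8 replicate 2 and 0.0536 without D4H8 replicate 3. One fit over all 21 libraries gave adjusted p between 0.0714 and 0.457 for the 4 stage comparisons of Dlk1, so each of these calls was lost. The standard error of Dlk1 was 0.28 in that fit, against 0.13 in the fit of untreated libraries.

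**Figure D2:**
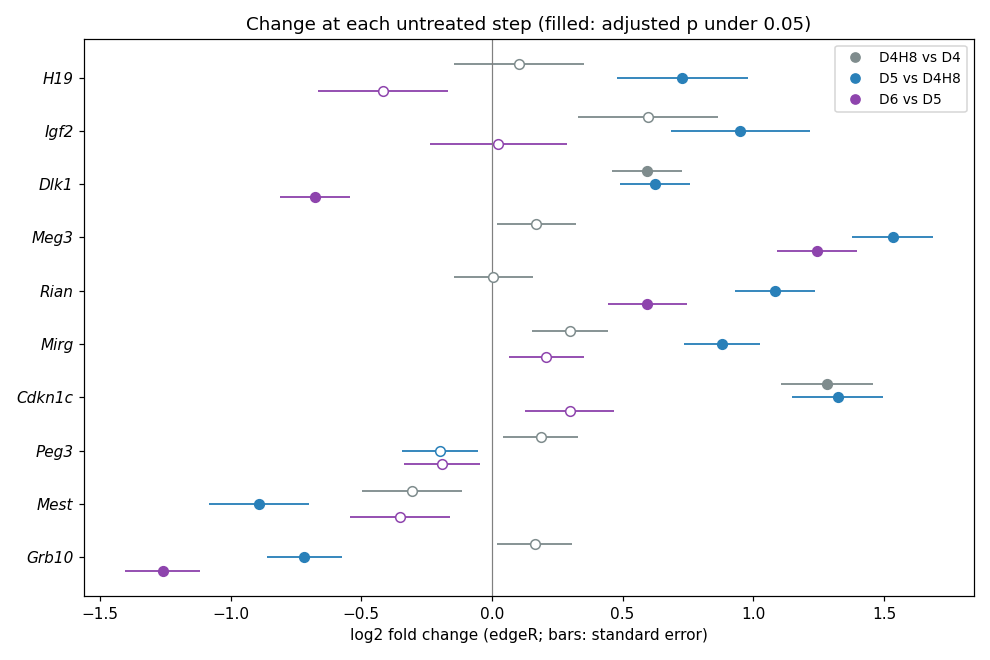
Log2 fold change (horizontal axis) of each gene at the 3 steps of the untreated course, with bars for the standard error and filled points for an adjusted p under 0.05. Meg3 has filled points at 1.53 and 1.24, and Dlk1 has filled points on both sides of 0.

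The ratio of Dlk1 to Meg3 within a library compares total RNA of these neighbours without dependence on sequencing depth. Dlk1 stood at 67.6, 95.4 and 117% of the Meg3 level at D4, at 111, 122 and 137% at D4H8, at 67.7, 58.2 and 69.9% at D5, and at 14.7, 18.5 and 19.3% at D6 (FPKM, per length). The D6 and D4 libraries did not overlap, and the mean log2 ratio differed by -2.39 (pooled SD 0.32, n = 3 per group, exact permutation p = 0.1, the smallest that 3 against 3 allows, 0.32 adjusted over 16 ratio comparisons). The non-coding RNAs did not keep a fixed ratio either. Rian went from 60.4 to 68.1% of Meg3 at D4 to 26.0 to 29.4% at D6, a log2 difference of -1.25 (pooled SD 0.09, n = 3, exact p = 0.1), and Mirg from 11.1 to 12.6% to 3.69 to 4.46%, a log2 difference of -1.56 (pooled SD 0.12, n = 3, exact p = 0.1). Meg3 therefore rose more than both non-coding neighbours in each D6 library against each D4 library, and no design of 3 against 3 can bring such a test under 0.05.

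**Figure D3:**
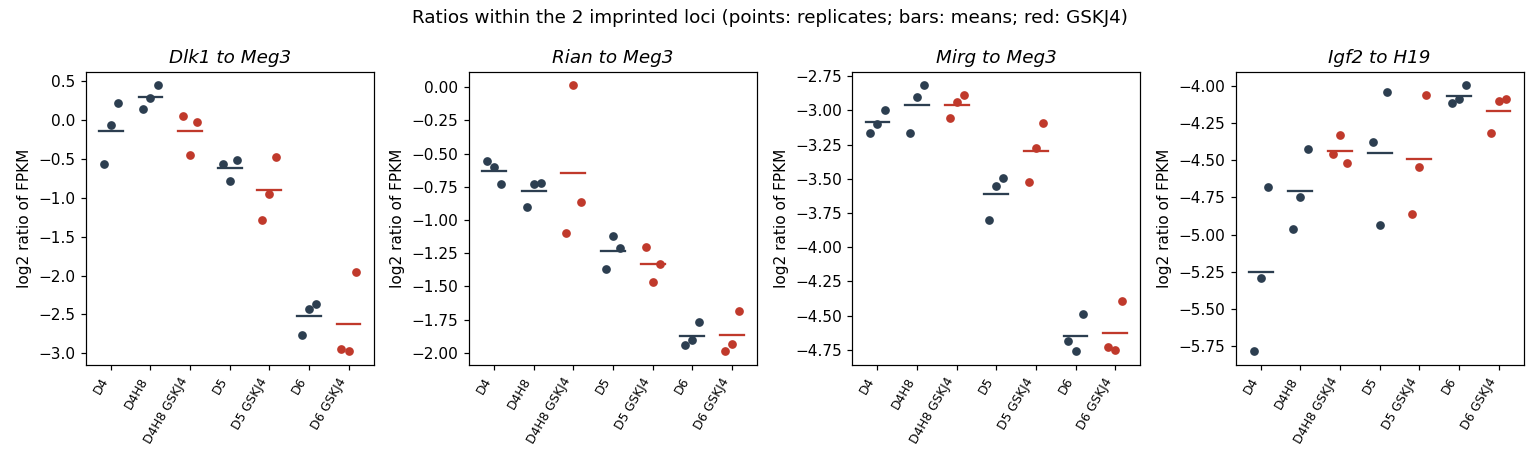
Log2 ratio of FPKM (vertical axis, own scale per panel) for 3 pairs of the Dlk1-Meg3 locus and for Igf2 to H19 in the 7 groups, one point per library, a bar at the mean and GSKJ4 groups in red. The 3 ratios to Meg3 are lower in each D6 library than in each D4 library, and the ratio of Igf2 to H19 is higher.

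H19, the non-coding RNA that hosts miR-675, was called at 1 of the 3 steps. Its levels were 79.5, 92.3 and 80.7 FPKM at D4, 92.8, 108 and 80.8 at D4H8, 110, 224 and 133 at D5, and 68.5, 114 and 141 at D6. The D5 libraries stood above those of D4H8, and the D6 libraries overlapped those of every earlier stage. The rise to D5 was 0.73 on the log2 scale (SE 0.25, adjusted p = 0.0434), and 0.33 with an adjusted p of 0.298 without D5 replicate 2, the library at 224 FPKM. In all, 9 of the 12 fits that left out one library lost this call, with adjusted p of up to 0.298, as did upper-quartile scaling (adjusted p = 0.0608). From D4 to D6 the log2 fold change of H19 was 0.41 (SE 0.25, adjusted p = 0.161), and without D6 replicate 1 it was 0.64 with an adjusted p of 0.0314. The fit without a filter on low counts called H19 lowered from D5 to D6 (adjusted p = 0.0328) and raised from D4 to D6 (adjusted p = 0.0233), and one fit over all 21 libraries did not call the rise to D5 (adjusted p = 0.121).

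Igf2, the growth factor gene next to H19, had few reads assigned to it. It stood at 1.44, 2.36 and 3.15 FPKM at D4, at 2.98, 4.01 and 3.77 at D4H8, at 5.29, 7.31 and 8.09 at D5 and at 3.95, 6.74 and 8.88 at D6. The D5 libraries were all above those of D4H8, and D5 and D6 overlapped almost fully. Igf2 rose by 0.95 on the log2 scale from D4H8 to D5 (SE 0.27, adjusted p = 0.0156) and by 1.57 from D4 to D6 (SE 0.27, adjusted p = 0.00017). The first of these lost its call without D4H8 replicate 1 (adjusted p = 0.0610), D5 replicate 2 (0.0528) or D5 replicate 3 (0.0702) and in one fit over all 21 libraries (0.0626). Igf2 stood at 1.81 to 3.90% of the H19 level at D4 and at 5.76 to 6.28% at D6, without overlap (log2 difference 1.19, pooled SD 0.39, n = 3, exact permutation p = 0.1).

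At D6 the H19 and Igf2 levels were lowest in the library of replicate 1, both with and without GSKJ4, and so was the summed level of the 10 fibroblast markers. That sum was 10.9, 23.8 and 29.7 FPKM in the untreated libraries and 8.15, 17.9 and 24.2 FPKM in the GSKJ4 libraries, in the same order as H19 (68.5, 114 and 141, and 62.6, 97.3 and 150 FPKM). Of the fibroblast markers 4, 6 and 6 were at or above 1 FPKM in both sets, and Lum averaged 0.41 FPKM at D6. The pluripotency sum was lowest in the same libraries, at 11.2 FPKM untreated and 13.7 FPKM with GSKJ4. The summed level of 6 muscle and mesoderm markers ran in that order too, at 3.96, 6.23 and 13.6 FPKM untreated and 3.75, 4.55 and 15.3 FPKM with GSKJ4. At D5 the fibroblast sum ran in the opposite order to H19, at 18.5, 13.8 and 15.2 FPKM, and in D4H8_GSKJ4 it was 12.7, 15.8 and 31.6 FPKM with H19 lowest in the second library. The part of these cells in the H19 and Igf2 levels was not tested.

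Cdkn1c, the cyclin-dependent kinase inhibitor, rose from the first step on and nearly as far as Meg3. Its levels were 20.3, 29.3 and 34.1 FPKM at D4, 83.1, 60.7 and 63.9 at D4H8, 200, 149 and 170 at D5, and 184, 200 and 207 at D6. D4H8 stood above D4 and D5 above D4H8 without overlap, while D5 and D6 overlapped. It rose by 1.28 on the log2 scale within 8 hours (SE 0.17, adjusted p = 0.000492) and by 1.32 to D5 (SE 0.17, adjusted p = 7.02e-05), and the last step of 0.30 did not pass (SE 0.17, adjusted p = 0.198). The rise from D4 to D6 was 2.90 (SE 0.18, adjusted p = 1.13e-08) with 2.72 to 2.98 over the fits that each lacked 1 library.

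Grb10, the adaptor that dampens insulin and IGF receptor signalling, was the most abundant of the 10 genes at D4 and fell. It stood at 169, 210 and 210 FPKM at D4 and at 254, 207 and 220 at D4H8, which overlapped. It stood at 131, 139 and 144 FPKM at D5 and at 43.2, 53.1 and 64.0 at D6, each below the group before. The fall was 0.72 on the log2 scale to D5 (log2 fold change -0.72, SE 0.14, adjusted p = 0.00196) and steeper to D6 (-1.26, SE 0.14, adjusted p = 2.69e-05). From D4 to D6 the log2 fold change was -1.82 (SE 0.15, adjusted p = 1.38e-07).

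Mest, a gene of the hydrolase family and host of miR-335, fell mainly between D4H8 and D5. Its levels were 65.0, 92.3 and 81.9 FPKM at D4, 69.1, 72.0 and 58.2 at D4H8, 24.6, 43.7 and 39.3 at D5, and 28.2, 20.9 and 28.4 at D6. D4H8 and D5 did not overlap, and the other neighbouring groups did. The log2 fold change was -0.89 at that step (SE 0.19, adjusted p = 0.0033) and -1.55 from D4 to D6 (SE 0.20, adjusted p = 9.61e-06). Copg2, which shares exonic bases with Mest, had log2 fold changes of 0.20 from D4H8 to D5 (SE 0.12, adjusted p = 0.249) and -0.27 from D4 to D6 (SE 0.12, adjusted p = 0.0721), and it was lowered from D5 to D6 (-0.41, SE 0.12, adjusted p = 0.0197).

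Peg3, the zinc-finger gene, was called in none of the 4 stage comparisons. It was at 39.1, 45.8 and 41.8 FPKM at D4, at 51.4, 57.3 and 40.5 at D4H8, at 42.3, 45.7 and 41.8 at D5 and at 29.9, 34.3 and 41.2 at D6. All neighbouring groups overlapped, apart from D5 and D6. The change between D4 and D6 was -0.20 on the log2 scale (SE 0.14, adjusted p = 0.233), and upper-quartile scaling gave -0.36 (adjusted p = 0.0469), a scaling under which the median of all genes also moved, from -0.04 to -0.19.

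By mean FPKM the order at D4 was Grb10 (197 ± 23.6 SD, n = 3), H19 (84.2 ± 7.09), Mest (79.7 ± 13.8), Peg3 (42.2 ± 3.40), Cdkn1c (27.9 ± 7.03), Meg3 (20.7 ± 0.91), Dlk1 (19.2 ± 4.45), Rian (13.5 ± 1.37), Mirg (2.44 ± 0.07) and Igf2 (2.32 ± 0.86). The ranges of H19 and Mest overlapped, as did those of Cdkn1c, Meg3 and Dlk1 among themselves, of Dlk1 and Rian, and of Mirg and Igf2. At D6 the order was Cdkn1c (197 ± 11.6 SD, n = 3), Meg3 (152 ± 22.6), H19 (108 ± 36.9), Grb10 (53.4 ± 10.4), Rian (41.5 ± 4.21), Peg3 (35.1 ± 5.69), Dlk1 (26.4 ± 0.26), Mest (25.8 ± 4.25), Igf2 (6.52 ± 2.47) and Mirg (6.08 ± 0.80). The ranges of Meg3 and H19 overlapped at D6, as did those of Grb10 and Rian, of Rian and Peg3, of Dlk1 and Mest, and of Igf2 and Mirg. Cdkn1c and Meg3 had thus moved from the middle of the order to its head, and Grb10 from the head to the middle.

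The comparison of GSKJ4-treated with untreated cultures asks whether the levels of these genes differed with the inhibitor at a given stage. At D4H8, Grb10 was lower with GSKJ4 and no other gene of the 10 passed the test: 0 raised and 1 lowered, against 2.11% raised and 1.85% lowered of the 16269 genes tested on these 6 libraries (edgeR). At an unadjusted p under 0.05 there were 3 of the 10 and 25.1% of all genes, and DESeq2 called 2 of the 10 and 12.8% of all genes. In the same libraries the progenitor transcription factor Olig2 averaged 98.2 FPKM untreated and 6.93 FPKM with GSKJ4, and the sum of 6 motor neuron progenitor markers ran from 224 to 303 FPKM untreated and was 118, 58.5 and 106 FPKM in the treated ones, lowest in replicate 2. The part of this shift in cell state in the results on imprinted genes was not tested.

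Grb10 was at 254, 207 and 220 FPKM in untreated D4H8 libraries and at 132, 137 and 126 FPKM in GSKJ4 libraries, with no overlap and little spread in the treated group. The log2 fold change was -0.82 (SE 0.19, adjusted p = 0.0498), just inside the threshold, and RLE scaling gave an adjusted p of 0.0501. Leaving out one library moved the adjusted p to between 0.0195 and 0.240 and the fold change to between -0.91 and -0.70, and the lowest p came without D4H8_GSKJ4 replicate 2. The call was lost in the other 5 of these 6 fits, each with 5 libraries. For Grb10 the treated libraries (126 to 137 FPKM) overlapped the untreated D5 libraries (131 to 144 FPKM). In the treated libraries the summed level of 6 motor neuron markers ran from 11.6 to 27.1 FPKM. That sum ran from 7.53 to 19.1 FPKM at D4 and from 229 to 273 FPKM at D5.

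Cdkn1c was at 83.1, 60.7 and 63.9 FPKM untreated and at 48.9, 31.4 and 46.0 FPKM with GSKJ4 at D4H8, again with no overlap. Its log2 fold change was -0.77 (SE 0.21, adjusted p = 0.0673), and -0.64 (adjusted p = 0.0568) without D4H8_GSKJ4 replicate 2. DESeq2 gave an adjusted p of 0.0210 and the fit without a filter 0.00843.

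Peg3 had the opposite sign. It was at 51.4, 57.3 and 40.5 FPKM untreated and at 89.5, 106 and 57.0 FPKM with GSKJ4 at D4H8, where the lowest treated library lay just under the highest untreated one. Its log2 fold change was 0.74 (SE 0.28, adjusted p = 0.142), and 0.47 (adjusted p = 0.219) without D4H8_GSKJ4 replicate 2, the library with the highest Peg3 level. The fit without a filter and one fit over all 21 libraries each called 1 of the 10 genes raised at this stage. Over all genes these fits called 1229 of 31166 and 1058 of 18349 raised. In the edgeR fit of these 6 libraries, Peg3 alone was higher at an unadjusted p under 0.05.

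The Dlk1-Meg3 locus did not pass the test with GSKJ4 at any stage, and 1 library set much of its spread at D4H8. D4H8_GSKJ4 replicate 2 held Dlk1 at 7.88 FPKM, against 30.2 and 26.2 in the other treated libraries. Meg3 stood at 10.7 FPKM there, against 29.3 and 26.6, and Mirg at 1.40 FPKM, against 3.52 and 3.60. Rian was less low in it, at 10.8 FPKM against 13.7 and 14.6. With all 6 libraries the log2 fold changes at D4H8 were -0.54 for Dlk1 (SE 0.37), -0.19 for Meg3 (SE 0.30), -0.20 for Mirg (SE 0.31) and -0.16 for Rian (SE 0.17). Without that library they were -0.17, 0.11, 0.10 and -0.09, so the sign of Meg3 and Mirg turned. The ratio of Dlk1 to Meg3 was 111, 122 and 137% untreated and 103, 73.6 and 98.2% with GSKJ4, without overlap (log2 difference -0.44, pooled SD 0.22, n = 3, exact permutation p = 0.1, adjusted 0.32). The lowest treated value was again that of replicate 2, and the log2 difference was -0.28 without it.

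H19 and Igf2 showed the same dependence at D4H8. With GSKJ4 H19 stood at 123, 53.2 and 118 FPKM, the lowest again in replicate 2, against 92.8, 108 and 80.8 untreated (log2 fold change 0.00, SE 0.27). Igf2 stood at 5.57, 2.64 and 5.17 FPKM with GSKJ4, against 2.98, 4.01 and 3.77 (log2 fold change 0.26, SE 0.27, adjusted p = 0.563). Without replicate 2 the 2 treated libraries of each gene lay above all untreated ones, with log2 fold changes of 0.27 (adjusted p = 0.261) and 0.50 (adjusted p = 0.0954).

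At D5 none of the 10 genes was called, against 0.00613% raised and 0% lowered of 16309 genes, which is 1 gene, by edgeR. Among the 10 Cdkn1c alone had an unadjusted p under 0.05, as did 4.7% of all genes, and DESeq2 called none of the 10. Cdkn1c stood at 200, 149 and 170 FPKM untreated and at 128, 130 and 131 FPKM with GSKJ4, without overlap (log2 fold change -0.46, SE 0.15, adjusted p = 0.976). Mirg stood at 5.23, 6.04 and 5.89 FPKM untreated and at 6.94, 7.55 and 7.43 with GSKJ4, also without overlap (log2 fold change 0.31, SE 0.15, adjusted p = 0.976). Of the others, Meg3 (log2 fold change 0.00, SE 0.15), Peg3 (0.00, SE 0.14) and Mest (-0.02, SE 0.22) were closest to 0. None was called without D5_GSKJ4 replicate 2 either. The share of all genes whose treated and untreated libraries did not overlap was not counted at any stage.

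At D6 none of the 10 genes was called either, and edgeR called 0% raised and 0% lowered of 16301 genes, of which 222 had an unadjusted p under 0.05 and DESeq2 called 1. None of the 10 had an unadjusted p under 0.05, DESeq2 called none, and the log2 fold changes lay between -0.16 for Igf2 and 0.18 for Mest. Same-numbered libraries deviated together at D6, and a fit with the replicate number as a block called 0.294% of genes raised and 1.28% lowered. It called none of the 10. At an unadjusted p under 0.05 it had 7 of the 10 and 10.8% of all genes. In that fit Meg3 and Rian had log2 fold changes of 0.11 and 0.11 (SE 0.03 and 0.03, adjusted p = 0.168 and 0.124).

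**Figure D4:**
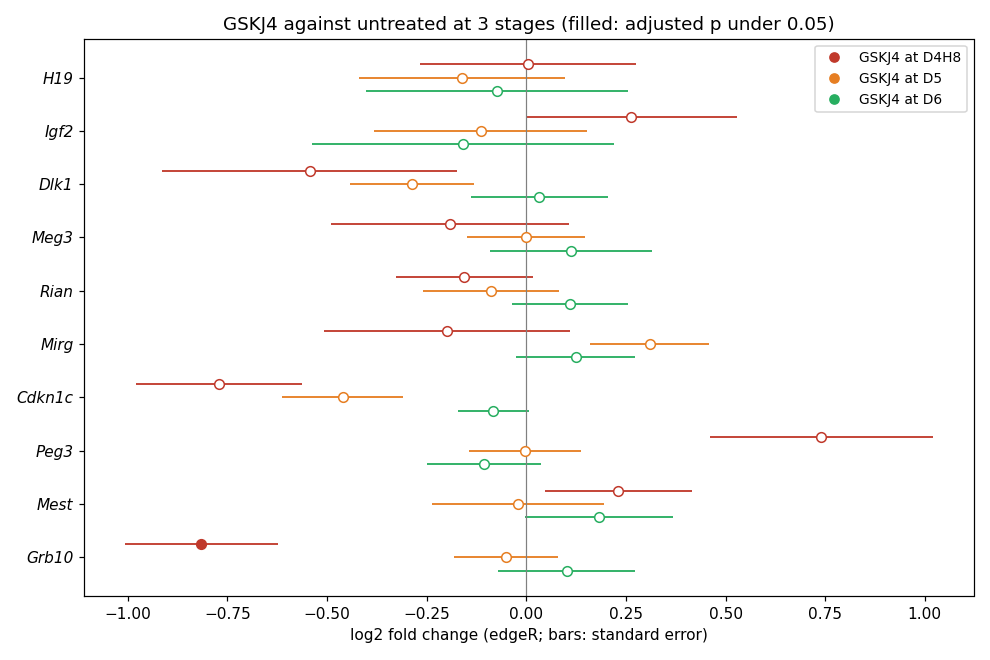
Log2 fold change with GSKJ4 (horizontal axis) of each gene at D4H8, D5 and D6, each from a fit of 3 against 3 libraries, with bars for the standard error and filled points for an adjusted p under 0.05. Grb10 at D4H8 is the only filled point, and at D6 all values lie between -0.16 and 0.18.

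The difference in GSKJ4 effect between stages was tested in one fit over 18 libraries. No gene of the 10 was called for D5 minus D4H8, where 0.232% of 18103 genes were raised and 0.0166% lowered by edgeR, and DESeq2 called none. None was called for D6 minus D4H8, where 0.552% were raised and 0.182% lowered by edgeR. DESeq2 called 1 of the 10 there, Grb10 (adjusted p = 0.0135), and 3.75% of all genes. At an unadjusted p under 0.05 there were 2 and 3 of the 10, and 10% and 13.7% of all genes. The effect on Grb10 was higher at D6 than at D4H8 by 0.93 on the log2 scale (SE 0.25, adjusted p = 0.0911), and that on Peg3 lower (log2 difference -0.84, SE 0.31, adjusted p = 0.242). That on Cdkn1c was higher by 0.71 (SE 0.24, adjusted p = 0.198). The Peg3 difference ran from -1.10 to -0.56 over the fits that each lacked 1 library, with adjusted p from 0.0353 (without D4H8_GSKJ4 replicate 3) to 0.450. Without D4H8_GSKJ4 replicate 2 the differences were 1.03 for Grb10, -0.56 for Peg3 and 0.58 for Cdkn1c.

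Across the 21 libraries, the genes with a course most like that of Meg3 were Cpe (Pearson r = 0.992 of log2 CPM), Dlg4 (0.990), Nrxn2 (0.990), Iglon5 (0.989) and Wdr13 (0.989), of 14678 genes compared. Cpe encodes a carboxypeptidase of the secretory pathway, Dlg4 a postsynaptic scaffold and Nrxn2 a presynaptic adhesion protein. Among the 10 genes, Rian (0.983), Mirg (0.912) and Cdkn1c (0.906) ran with Meg3, and Mest (-0.899), Grb10 (-0.861) and Peg3 (-0.705) ran against it. Among the genes most like H19 were Mia (0.840), Igf2os (0.791), Tgfb3 (0.769) and Emilin1 (0.745). Of the 10 genes Igf2 (0.728) and Dlk1 (0.652) were nearest to H19, and Meg3 was far from it (0.312). These libraries share their stages, so the correlations describe a common course over 7 groups of 3 and carry no test.

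Among 46 other imprinted genes 42 were tested over the untreated course, and from D4 to D6 21 rose and 8 fell, against 32.9% raised and 31% lowered of all genes, with a median log2 fold change of 0.23. Peg13, a non-coding RNA, rose from 1.97 FPKM (SD 0.33, n = 3) to 55.7 FPKM (SD 11.8), with a log2 fold change of 4.89 (SE 0.31, adjusted p = 1.16e-08). Nap1l5, a nucleosome assembly family gene, rose by 4.73 (SE 0.32, adjusted p = 1.85e-08), and Begain, which lies next to Dlk1 on chromosome 12, rose by 4.51 (SE 0.29, adjusted p = 1.2e-08). Kcnk9, a potassium channel gene beside Peg13, went from a mean of 0.00333 FPKM at D4 to 1.86 FPKM (SD 0.15) at D6, and no fold is given from so low a start. Phlda2, a growth-restraining gene best known from the placenta, fell (log2 fold change -2.03, SE 0.54, adjusted p = 0.00453), as did the amino acid transporter gene Slc38a4 (-1.87, SE 0.36, adjusted p = 0.000478). The non-coding RNA Airn (-1.55, SE 0.36, adjusted p = 0.00179) and Peg12 (-1.25, SE 0.36, adjusted p = 0.00726) fell too. Rtl1 and Dio3, the other paternally expressed coding genes of the Dlk1-Meg3 locus, rose by 1.21 (SE 0.27, adjusted p = 0.00125) and 2.32 (SE 0.43, adjusted p = 0.00031), from means of 0.34 and 0.32 FPKM at D4 to 0.75 and 1.59 FPKM at D6. They were chosen for their place in the locus, after their values were seen. Rtl1 overlaps its antisense transcripts, whose reads cannot be told apart from it.

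**Figure D5:**
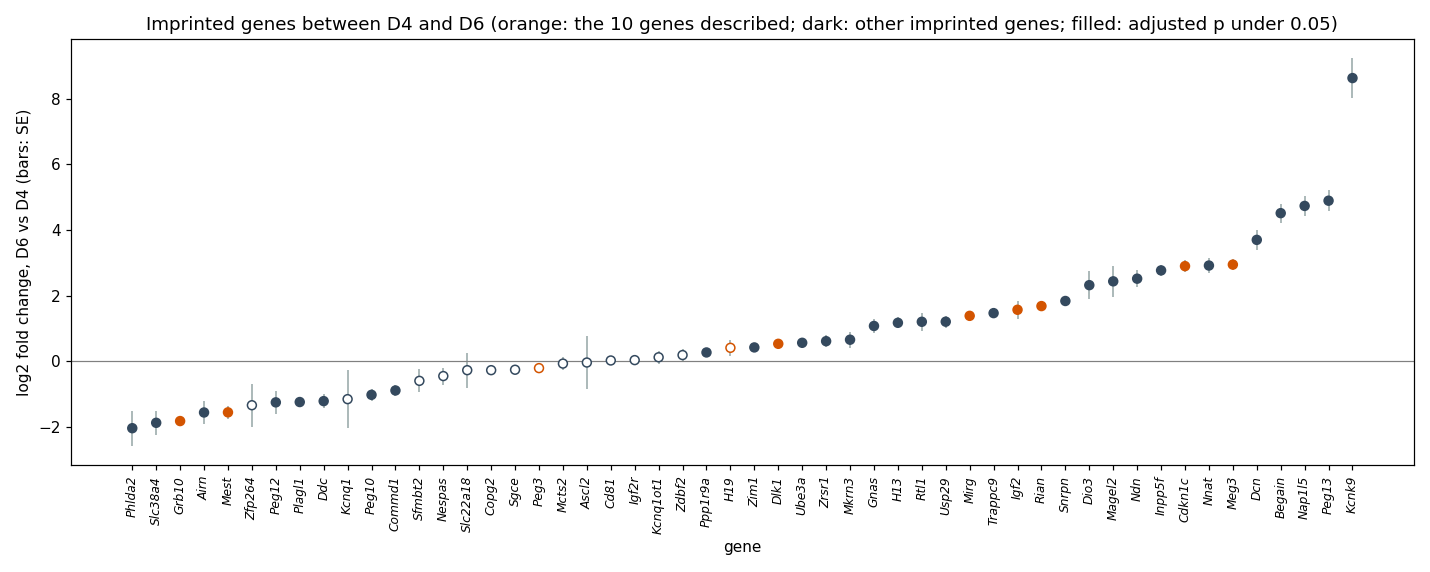
Log2 fold change from D4 to D6 (vertical axis) of the 10 genes (orange) and 42 other imprinted genes (dark), in rising order, with bars for the standard error and filled points for an adjusted p under 0.05. Grb10 at -1.82 and Mest at -1.55 lie near the low end, and Cdkn1c at 2.90 and Meg3 at 2.95 near the high end; the fitted value of Kcnk9 at the far right rests on a D4 level near 0.

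In the earlier steps 3 of the 42 rose and none fell from D4 to D4H8, among them Nnat (log2 fold change 0.83, SE 0.21, adjusted p = 0.0433), and 11 rose and 2 fell from D4H8 to D5. Of all genes 4.06% rose and 0.32% fell at the first of these steps and 17.2% and 10.5% at the second. From D5 to D6 15 rose and 7 fell, against 19.2% and 15.1% of all genes, with Dcn (2.93, SE 0.29) and Magel2 (2.50, SE 0.48) in the lead. Peg10, a retrotransposon-derived gene, fell from D4H8 to D5 (-0.93, SE 0.18, adjusted p = 0.00155). With GSKJ4 at D4H8 none of 41 rose and 3 fell, against 2.11% and 1.85% of all genes. Those that fell were Ddc, which encodes aromatic amino acid decarboxylase (-2.50, SE 0.26, adjusted p = 0.00364), Peg12 (-2.19, SE 0.45, adjusted p = 0.0354) and the zinc-finger gene Plagl1 (-1.01, SE 0.17, adjusted p = 0.0238). Without D4H8_GSKJ4 replicate 2, 3 rose and 3 fell, and a replicate block gave 6 and 5, with 14% of all genes called in that block fit. Without any one of the untreated D4H8 libraries 0 rose and 1 fell. None of 41 was called at D5 or D6 by edgeR, with 1 at an unadjusted p under 0.05 at each stage, and none by DESeq2, which tested 41 at D5 and 44 at D6. The fit with a replicate block at D6 called 1 of 41 raised and 1 lowered, against 0.294% and 1.28% of all genes.

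The IGF signalling genes, of which 14 of 15 were tested, include the receptors on which Igf2 and Grb10 act. From D4 to D6, 7 rose and 2 fell, against 32.9% and 31% of all genes. The ligand gene Igf1 rose from 0.48 to 4.26 FPKM (log2 fold change 3.26, SE 0.36, adjusted p = 2.95e-06). The receptor genes Insr (1.54, SE 0.16, adjusted p = 1.46e-06) and Igf1r (0.81, SE 0.16, adjusted p = 0.000597) and the adaptor gene Irs1 (0.90, SE 0.13, adjusted p = 4.26e-05) rose as well, while Grb10 fell. The binding protein gene Igfbp5 rose by 2.55 (SE 0.28, adjusted p = 2.6e-06). Igf2bp1, an RNA-binding protein gene named for its binding of Igf2 RNA, fell (-1.12, SE 0.17, adjusted p = 4.73e-05), and so did Igfbp4 (-0.85, SE 0.18, adjusted p = 0.000712). Igf2r, which clears IGF2 and is itself imprinted, had a log2 fold change of 0.04 (SE 0.11, adjusted p = 0.77). With GSKJ4 at D4H8 Igfbp2 was lower, at 48.9 FPKM (SD 31.4) against 178 FPKM (SD 18.4), with a log2 fold change of -1.94 (SE 0.43, adjusted p = 0.0419) that was -1.54 (adjusted p = 0.0122) without D4H8_GSKJ4 replicate 2. The Igfbp2 call was lost without D4H8_GSKJ4 replicate 1 or any one of the untreated D4H8 libraries.

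Of 6 factors that set or keep imprints, or act on imprinted genes, 1 rose and 3 fell from D4 to D6, against 32.9% raised and 31% lowered of all genes. Zfp57, a zinc-finger protein that holds methylation at imprinted regions, rose from 11.2 FPKM (SD 2.13, n = 3) to 54.4 FPKM (SD 4.89), by 2.37 on the log2 scale (SE 0.14, adjusted p = 6.11e-09). Ctcf, the insulator protein that binds the H19 and Igf2 control region, fell (log2 fold change -0.71, SE 0.14, adjusted p = 0.0004), and so did Plagl1 (-1.24, SE 0.14, adjusted p = 4.25e-06) and Dppa3 (-1.54, SE 0.53, adjusted p = 0.0206). Trim28, the partner of Zfp57, had a log2 fold change of -0.26 (SE 0.16, adjusted p = 0.161), and Zfp445 one of 0.25 (SE 0.12, adjusted p = 0.0831). With GSKJ4 at D4H8 only Plagl1, which also stands among the other imprinted genes, was called, and that call was lost without any one of the untreated D4H8 libraries.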

How the data were processed

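RNA-seq of poly-A RNA from 21 libraries was used. The deposited table of raw counts holds whole-number reads per gene and library, which the authors made by trimming with Fastp, aligning to mm10 with Hisat2 and counting with HTSeq-count. The deposited FPKM table scales the same counts by exonic length and counted reads, and values recomputed here differed from it by at most 0.005. Both cover 55400 genes, 55140 of which had a symbol in GENCODE M21 (GRCm38). No column was left unused.

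Counts were tested with edgeR 4.0.16 (R 4.3.3) by the quasi-likelihood test, after filterByExpr (minimum count 10) and TMM scaling. Adjusted p-values follow Benjamini-Hochberg over every tested gene. Stages were compared in one fit of 12 untreated libraries, GSKJ4 within each stage on 6, and differences between stages on 18. No block was used in these fits. Ratios of FPKM were compared with two-sided exact permutation tests. Total counts per library ran from 14982115 to 34383842. The pipeline was tested on simulated data. Alternatives were DESeq2 1.42.0, RLE and upper-quartile scaling, no filter, a single fit of all 21 libraries, the replicate number as a block, and fits that each lacked 1 library. Calculations and figures also used Python 3.11.15, pandas 2.3.3, numpy 2.4.6, scipy 1.17.1 and matplotlib 3.10.9. p-values measure the spread between these libraries, which may be partly technical.

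The replicate numbers come from the labels. Deviations from group means correlated between same-numbered libraries at 0.663, 0.316 and 0.446 for D6 with and without GSKJ4, and at 0.137 to 0.314 for D4H8 with D5 and 0.144 to 0.310 for D5 with D6, so those numbers pair the libraries. The lowest such correlation was smaller for GSKJ4 at D5 (0.0384), for D4 with D4H8 (0.0729) and for D4 with D6 (0.0244). Each same-numbered value there still lay above those of the other numbers. For GSKJ4 at D4H8, that of replicate 2 did not (0.0731, against 0.123 for another number). No 2 libraries of a group differed by sampling noise alone.

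The 10 genes and the lists were chosen with earlier results of these data known. The named genes of other lists are, per comparison, up to 4 raised and 4 lowered ones with the largest log2 fold change among those called with a mean of at least 100 reads. Those given beside them (Copg2, Igf1r, Igf2r, Trim28, Zfp445, Rtl1, Dio3) were chosen after their values were seen. For H19 and Meg3, genes with the highest Pearson r of log2 CPM over the 21 libraries are named, and 1 of those for H19 is not reported here.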

Additional observations from a re-analysis of the deposited data

How the results depend on the processing

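Of 24 calls on the 10 genes over the 9 comparisons, DESeq2, the fit without a filter and the replicate block kept 24, RLE and upper-quartile scaling 23 each, and one fit over all 21 libraries 18, and no called value changed sign under any alternative run. The number of the 10 genes called from D4 to D4H8 went from 2 to 1 in one fit over all libraries and to 1 or 2 without one library. The fit over all libraries called 2.3% of all genes there, against 4.38%. With GSKJ4 at D4H8 the number went from 1 to 2 (DESeq2), 0 (RLE scaling), 3 (no filter), 2 (replicate block) and 3 (one fit over all libraries), and to 0 or 1 without one library. The share of all genes called went from 3.96% to 12.8%, 4.16%, 7.34%, 14% and 11.2% in the same order of fits. For the effect at D6 minus that at D4H8 the number went from 0 to 1 with DESeq2 and without a filter. Without one library it was 0 or 1. The share of all genes called went from 0.735% to 3.75% with DESeq2 and to 1.77% without a filter. Over all genes, GSKJ4 at D4H8 gave 343 raised and 301 lowered, against 1136 and 838 by DESeq2 and 1235 and 1039 with a replicate block. GSKJ4 at D5 gave 1 call, against 29 raised and 40 lowered by DESeq2. Upper-quartile scaling called 5144 raised and 6342 lowered from D4 to D6, against 5761 and 5427. The block, which pairs libraries by replicate number, added Igf2 from D4 to D4H8 (adjusted p = 0.0314, edgeR). Same-numbered libraries of D4 and D4H8 correlated above those with other numbers. It also added Cdkn1c with GSKJ4 at D4H8 (adjusted p = 0.0208, edgeR). The block changed no call on the 10 genes in the other comparisons. The causes were not tested.

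Log2 fold changes that changed sign were uncalled and lay near 0. H19 with GSKJ4 at D4H8 became -0.0051 without a filter and -0.049 with the replicate block. Igf2 from D5 to D6 became -0.052 with upper-quartile scaling, -0.011 with the block and -0.022 in one fit over all libraries. With GSKJ4 at D5, Meg3 became 0.00068 with RLE and 0.0091 with upper-quartile scaling, Peg3 0.0076 with upper-quartile scaling, and Mest 0.00046 with the block. Rian from D4 to D4H8 became -0.022 with upper-quartile scaling. Over the fits that each lacked 1 library, these values spanned 0. With GSKJ4 at D4H8, H19 ran from -0.18 to 0.27, Meg3 from -0.43 to 0.11 and Mirg from -0.37 to 0.10. With GSKJ4 at D5, H19 ran from -0.35 to 0.19, Igf2 from -0.28 to 0.14, Meg3 from -0.12 to 0.10, Rian from -0.28 to 0.014, Peg3 from -0.10 to 0.067, Mest from -0.22 to 0.14 and Grb10 from -0.11 to 0.024. With GSKJ4 at D6, H19 ran from -0.42 to 0.17, Igf2 from -0.55 to 0.13, Dlk1 from -0.17 to 0.19, Meg3 from -0.053 to 0.28, Peg3 from -0.22 to 0.0014 and Grb10 from -0.060 to 0.23. Igf2 from D5 to D6 ran from -0.24 to 0.27, and Rian from D4 to D4H8 from -0.084 to 0.15. For the GSKJ4 effect at D5 minus that at D4H8, H19 ran from -0.44 to 0.17, Dlk1 from -0.13 to 0.58, Meg3 from -0.12 to 0.43 and Rian from -0.15 to 0.15, and for D6 minus D4H8, H19 ran from -0.41 to 0.18 and Mest from -0.21 to 0.084. The 4 ratios at D6 against D4 kept their direction without any one library, while 6 of the 12 ratio differences with GSKJ4 spanned 0, such as Rian to Meg3 at D4H8, at 0.14 and -0.20 without D4H8_GSKJ4 replicate 2.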
